A study of Mus musculus with 19 samples.

Results

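The genes described here are 35 genes of the endothelium, the cell layer that lines blood vessels, measured in mouse kidney. They were taken by gene symbol from the deposited count table, in which they make up 35 of 40413 genes, and all 35 were among the 16421 genes that passed the filter on low counts. They comprise 14 genes of junctions and the cell surface, 4 receptors of the vascular endothelial growth factor (VEGF) family, 3 genes of the Tie receptor system, 7 other receptors and guidance genes, 2 connexins and 5 transcription factors.

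Kidney RNA from 4 groups of mice was sequenced, 1 library per mouse. BPH/2J mice, an inbred line bred for high blood pressure, received Cmpd17b (4 libraries used) or vehicle (5 libraries). BPN/3J mice, the line bred for normal blood pressure, received Cmpd17b (5 libraries) or vehicle (4 libraries). Cmpd17b is a small-molecule agonist at formyl peptide receptors and was given daily at 50 mg/kg/day for 28 days by intraperitoneal injection. Mice were adult, and the labels used here give neither sex nor age in weeks. Because the lines differ at many loci, a strain difference is not a difference in blood pressure alone. A further library, labelled BPH/2J Cmpd17b replicate 1, was left out of all values below unless it is named: it held the heart muscle gene Myh6 at 14200 CPM (counts scaled to library size) and the kidney tubule gene Slc34a1 at 5.94 CPM, where the other 18 libraries had at most 28.3 and at least 2202 CPM. Total counts in the 18 libraries ran from 21400100 to 40998700. Their 12 tubule marker genes summed to between 8530 and 10173 CPM.

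Endothelial cells seal vessels through adhesion molecules such as VE-cadherin and claudins, sense VEGF through tyrosine kinase receptors, and are stabilised by angiopoietins acting on the Tie receptors. In the kidney they form fenestrated glomerular capillaries, peritubular capillaries with diaphragms across their fenestrae, and arterioles and larger vessels. ETS factors and SOX factors of the F group keep many of these genes active in endothelium. In whole tissue, a lower level can mean fewer endothelial cells or less RNA per cell, and these cannot be told apart here.

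RefSeq promoters of mouse build GRCm38.p6 were available for 21 of the 35 genes. The letters AACAGGAA, a core shared by FOX:ETS sites, were searched on both strands in the 250 bases before each start. They occurred in 3 of the 21 genes (14.3%), against 2.5% of 27025 genes with a promoter entry. The shorter ETS letters CAGGAAG, which overlap that core, occurred in 6 of 21 genes (28.6%) against 12.1% of all genes. The SOX letters ACAAT occurred in 8 of 21 (38.1%) against 30.9% of all genes, and TATAAA occurred in 3 of 21 (14.3%) against 14.3% of all genes. The 3 promoters with the FOX:ETS core (Emcn, Egfl7 and Calcrl) and the others of genes called below that have an entry (Podxl2 and Adgrl4) are printed from 5′ to 3′ along the gene, with the core in capitals. In Emcn the core is on the opposite strand, and Podxl2 and Adgrl4 hold no match in this window. Egfl7 and Podxl2 have 3 starts each in the table, of which 1 is shown.
Emcn, chr3:137340828-137341077, plus strand: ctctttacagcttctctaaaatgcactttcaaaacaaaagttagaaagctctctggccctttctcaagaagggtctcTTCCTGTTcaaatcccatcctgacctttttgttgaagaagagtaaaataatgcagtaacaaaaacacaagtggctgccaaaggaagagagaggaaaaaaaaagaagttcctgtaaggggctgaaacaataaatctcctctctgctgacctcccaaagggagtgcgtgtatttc
Egfl7, chr2:26580833-26581082, plus strand: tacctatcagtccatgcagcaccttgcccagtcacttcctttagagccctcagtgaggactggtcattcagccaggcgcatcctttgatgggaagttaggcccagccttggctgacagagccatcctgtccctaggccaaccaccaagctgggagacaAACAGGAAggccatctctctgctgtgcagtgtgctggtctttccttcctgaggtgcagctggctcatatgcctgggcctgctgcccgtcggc
Calcrl, chr2:84425267-84425516, minus strand: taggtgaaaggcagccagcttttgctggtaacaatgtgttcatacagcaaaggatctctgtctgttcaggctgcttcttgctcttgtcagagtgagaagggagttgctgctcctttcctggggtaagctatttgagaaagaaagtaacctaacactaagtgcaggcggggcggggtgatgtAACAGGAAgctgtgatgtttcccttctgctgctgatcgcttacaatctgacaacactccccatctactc
Podxl2, chr6:88875047-88875296, minus strand: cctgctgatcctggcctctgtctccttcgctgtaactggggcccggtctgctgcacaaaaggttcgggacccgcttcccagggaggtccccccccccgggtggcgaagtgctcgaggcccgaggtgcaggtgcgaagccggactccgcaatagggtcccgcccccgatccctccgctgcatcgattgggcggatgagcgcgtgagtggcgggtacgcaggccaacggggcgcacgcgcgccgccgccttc
Adgrl4, chr3:151437632-151437881, plus strand: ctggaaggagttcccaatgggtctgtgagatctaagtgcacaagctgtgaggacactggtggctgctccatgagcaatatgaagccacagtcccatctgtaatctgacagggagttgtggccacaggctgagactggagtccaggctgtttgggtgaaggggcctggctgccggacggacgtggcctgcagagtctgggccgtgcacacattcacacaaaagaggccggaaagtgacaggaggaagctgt

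The core began 173 bases before the start in Emcn, 92 in Egfl7 and 69 in Calcrl. Of these genes, Calcrl was called in the strain comparison, and Emcn and Egfl7 were not called in any comparison.

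Levels can be compared between genes only per length of transcript, as CPM per kilobase of exon. On that scale Plvap, which forms the diaphragms of fenestrae, stood highest in each of the 4 groups, at 28.6 ± 4.40 in treated BPH/2J (SD, n = 4), 32.3 ± 9.83 in vehicle BPH/2J (n = 5), 34.4 ± 5.63 in treated BPN/3J (n = 5) and 26.2 ± 4.21 CPM per kilobase in vehicle BPN/3J (n = 4). Eng, a co-receptor for BMP and TGF-beta ligands, was the next in each group, at between 11.3 and 13.8 CPM per kilobase on average. Vwf, the clotting glycoprotein of larger vessels, was the lowest in each group, at between 0.0417 and 0.0674 CPM per kilobase, and Podxl2 was the next lowest. Even the least abundant genes were counted in every library: Vwf had 15 to 56 counts and Podxl2 20 to 87 counts, while Nrp1 had 1492 to 3097. All further levels are in CPM on the scale of TMM normalisation, and replicates are given in ascending order of their number.

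**Figure D1:**
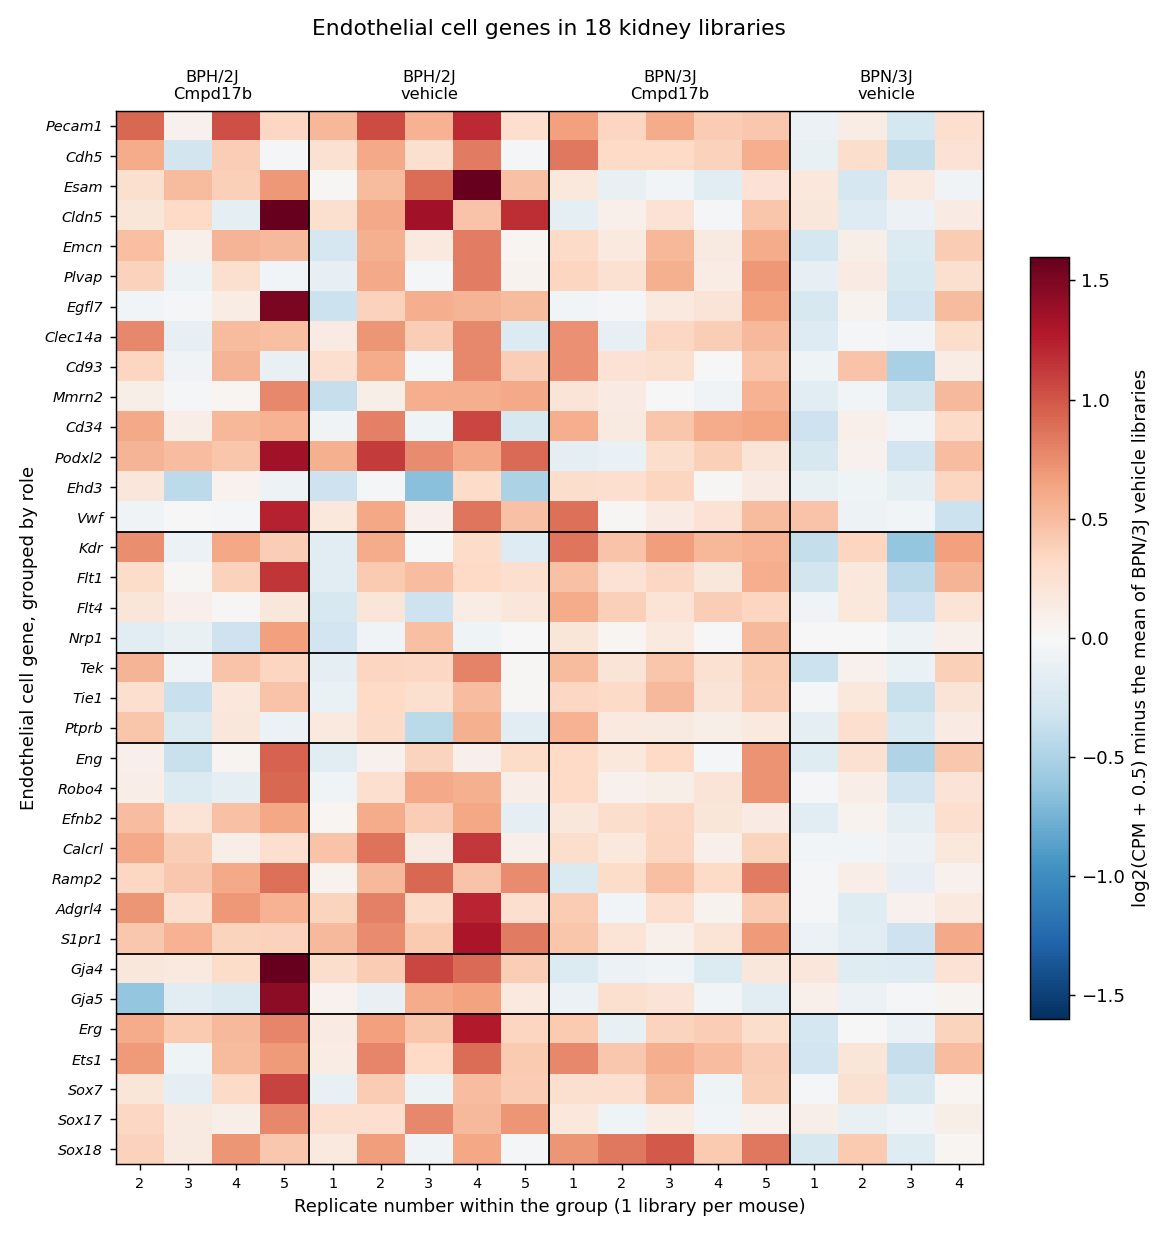
Level of each of the 35 genes (rows, grouped by role) in each of 18 kidney libraries (columns, numbered by replicate within the group), as log2(CPM + 0.5) minus the mean of the vehicle BPN/3J libraries. BPH/2J Cmpd17b replicate 5 and BPH/2J vehicle replicate 4 each hold the highest value of the 18 libraries for 13 genes, and BPN/3J vehicle replicate 3 holds the lowest for 13.

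The first comparison asked how the hypertensive line differed from the normotensive line without the compound. Of the 35 genes, 7 were called higher and 0 lower in kidneys of vehicle BPH/2J mice relative to vehicle BPN/3J mice, by edgeR's quasi-likelihood test with Benjamini-Hochberg adjustment over all genes at an adjusted p under 0.05. That is 20% of the genes, against 5.82% of all 16421 genes called higher and 10.8% called in either direction. The median log2 fold change of the 35 genes was 0.34, against 0.04 for all genes, and 33 of the 35 had a positive value, between -0.23 for Ehd3 and 1.05 for Podxl2. At an unadjusted p under 0.05, 13 of the 35 were higher, against 13.5% of all genes. In 6 genes (Pecam1, Sox17, Adgrl4, Podxl2, Cldn5 and Gja4) every vehicle BPH/2J library lay above every vehicle BPN/3J library, against 6.9% of all genes.

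These counts rested on single libraries. Leaving out BPN/3J vehicle replicate 3 left 0 genes called, with 3.98% of all genes called higher in that fit. Leaving out BPN/3J vehicle replicate 1 or 2 left 1, with 3.88% and 3.98% of all genes called higher. Without BPH/2J vehicle replicate 2, 3 or 4 there were 3, 4 and 2, with 4.91%, 5.12% and 4.69% of all genes called higher. Without BPH/2J Cmpd17b replicate 5, which is not in the comparison but adds to the shared spread, there were 11, with 8.05% of all genes called higher. Each of the 7 genes stayed higher in BPH/2J in every refit. Pecam1, S1pr1 and Sox17 were called in 14 of 18 such refits, Adgrl4 in 13, Esam and Podxl2 in 12 each, and Calcrl in 7.

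Among the junction and surface genes, Pecam1, which encodes an adhesion molecule of endothelial cell borders, was at 29.7, 42.5, 30.1, 47.2 and 24.7 CPM in vehicle BPH/2J libraries, against 18.96, 22.1, 16.6 and 24.6 CPM in vehicle BPN/3J libraries. The groups did not overlap, though their nearest libraries lay side by side. Its log2 fold change was 0.76 (SE 0.207, edgeR adjusted p 0.0225).

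Esam, an adhesion molecule of endothelial tight junctions, was at 13.8, 19.5, 25.6, 42.2 and 19.03 CPM in vehicle BPH/2J libraries, against 15.4, 11.2, 15.2 and 12.97 CPM in vehicle BPN/3J libraries. BPH/2J replicate 4 stood far above the rest, and replicate 1 fell within the BPN/3J range. The log2 fold change of 0.81 (SE 0.233, edgeR adjusted p 0.0295) became 0.51 (adjusted p 0.0743) without BPH/2J vehicle replicate 4.

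Podxl2, which encodes endoglycan, a sialomucin related to podocalyxin, was at 1.57, 2.55, 1.87, 1.63 and 2.12 CPM in vehicle BPH/2J libraries, against 0.672, 0.967, 0.636 and 1.47 CPM in vehicle BPN/3J libraries. The groups did not overlap, and the log2 fold change of 1.05 was the largest among the 35 genes (SE 0.307, edgeR adjusted p 0.0337). An antisense transcript, Gm15612, overlaps 19.1% of its exon length in the GRCm38 annotation. The use of strand in counting is not given in the sources used here, so reads of the pair cannot be told apart.

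The other 11 genes of junctions and surface were not called. Cldn5, the tight junction claudin of endothelium, came nearest by fold, at 10.2 ± 3.57 CPM in vehicle BPH/2J (SD, n = 5) against 5.54 ± 0.754 CPM in vehicle BPN/3J (n = 4), with a log2 fold change of 0.87 (95% interval 0.13 to 1.62, edgeR adjusted p 0.131). Cdh5, which encodes VE-cadherin, had 0.41 (interval -0.03 to 0.85, edgeR adjusted p 0.244). Clec14a, Cd93 and Cd34, which encode cell surface glycoproteins, had log2 fold changes of 0.43, 0.41 and 0.40, and Mmrn2, the matrix partner of Clec14a and Cd93, had 0.32. Egfl7, a secreted matrix protein, had 0.34, Plvap 0.30, Emcn, a sialomucin of capillaries and veins, 0.29, and Vwf 0.70 with a wide 95% interval that also covers 0. Ehd3, an endocytic protein enriched in glomerular endothelium, was the only one of the group with a negative value, at -0.23 (interval -0.60 to 0.15).

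None of the VEGF receptor genes and none of the Tie system genes was called. Kdr, the main signalling receptor for VEGF-A, had a log2 fold change of 0.04 (95% interval -0.46 to 0.54), Flt1, a decoy-like VEGF receptor, 0.23 (-0.22 to 0.69), Flt4, the receptor for VEGF-C, -0.02 (-0.35 to 0.31) and the co-receptor Nrp1 0.03 (-0.35 to 0.41). Tek, the angiopoietin receptor, had 0.29 (-0.09 to 0.67), Tie1, its orphan partner, 0.20 (-0.14 to 0.55) and Ptprb, the phosphatase that acts on Tek, 0.12 (-0.28 to 0.51). These intervals do not show that the strains were alike.

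Among the other receptors and guidance genes 3 of 7 were called higher (42.9%), against 5.82% of all genes. The share was 21.4% among junction and surface genes, 20% among transcription factors, and 0% among VEGF receptors, Tie system genes and connexins. These role groups are small. The median log2 fold change over the 7 was 0.60, against 0.04 for all genes. S1pr1, the receptor through which sphingosine 1-phosphate tightens the endothelial barrier, was at 7.22, 8.59, 6.72, 12.9 and 9.08 CPM in vehicle BPH/2J libraries, against 4.54, 4.28, 3.77 and 7.74 CPM in vehicle BPN/3J libraries. BPN/3J replicate 4 stood above its group and overlapped the BPH/2J range. The log2 fold change was 0.81 (SE 0.218, edgeR adjusted p 0.0213).

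Adgrl4, an adhesion G protein-coupled receptor of endothelium, was at 20.6, 28.3, 19.96, 37.9 and 19.4 CPM in vehicle BPH/2J libraries, against 15.8, 13.9, 16.8 and 17.9 CPM in vehicle BPN/3J libraries. Every BPH/2J library was above every BPN/3J library. The log2 fold change was 0.65 (SE 0.180, edgeR adjusted p 0.0250).

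Calcrl, which pairs with Ramp2 to form the adrenomedullin receptor, was at 9.58, 12.9, 7.61, 15.5 and 7.27 CPM in vehicle BPH/2J libraries, against 6.62, 6.62, 6.39 and 7.74 CPM in vehicle BPN/3J libraries. BPH/2J replicates 2 and 4 were high, and replicates 3 and 5 lay below the highest BPN/3J library. The log2 fold change was 0.63 (SE 0.192, edgeR adjusted p 0.0418).

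Ramp2 itself had 10.7 ± 2.47 CPM in vehicle BPH/2J (SD, n = 5) and 7.05 ± 0.554 CPM in vehicle BPN/3J (n = 4), a log2 fold change of 0.60 that did not pass (edgeR adjusted p 0.0670). Vps25, on the same strand, overlaps 33.4% of its exon length, so part of its count is uncertain. Robo4, a guidance receptor, and Efnb2, the arterial ephrin ligand, each had 0.33, and Eng had 0.10; none of these was called.

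Of the connexins, which form gap junctions between arterial endothelial cells, Gja4 was at 3.81, 4.19, 6.90, 6.13 and 4.15 CPM in vehicle BPH/2J libraries, against 3.50, 2.58, 2.57 and 3.64 CPM in vehicle BPN/3J libraries. These did not overlap, but the log2 fold change of 0.71 (edgeR adjusted p 0.136) did not pass, nor did that of Gja5, at 0.33 (adjusted p 0.587). Of the transcription factors, Sox17, which acts in arterial endothelium, was called. It was at 9.07, 9.08, 12.99, 10.9 and 12.5 CPM in vehicle BPH/2J libraries, against 7.93, 6.77, 7.09 and 7.98 CPM in vehicle BPN/3J libraries. The groups were separate, with the smallest spread among the 7 called genes, and the log2 fold change was 0.55 (SE 0.151, edgeR adjusted p 0.0249). The transcript Gm37587 on the opposite strand overlaps 16.8% of its exon length. Erg (0.66, edgeR adjusted p 0.0569) and Ets1 (0.51, adjusted p 0.127), both ETS factors, and Sox7 (0.31) and Sox18 (0.31) were not called.

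**Figure D2:**
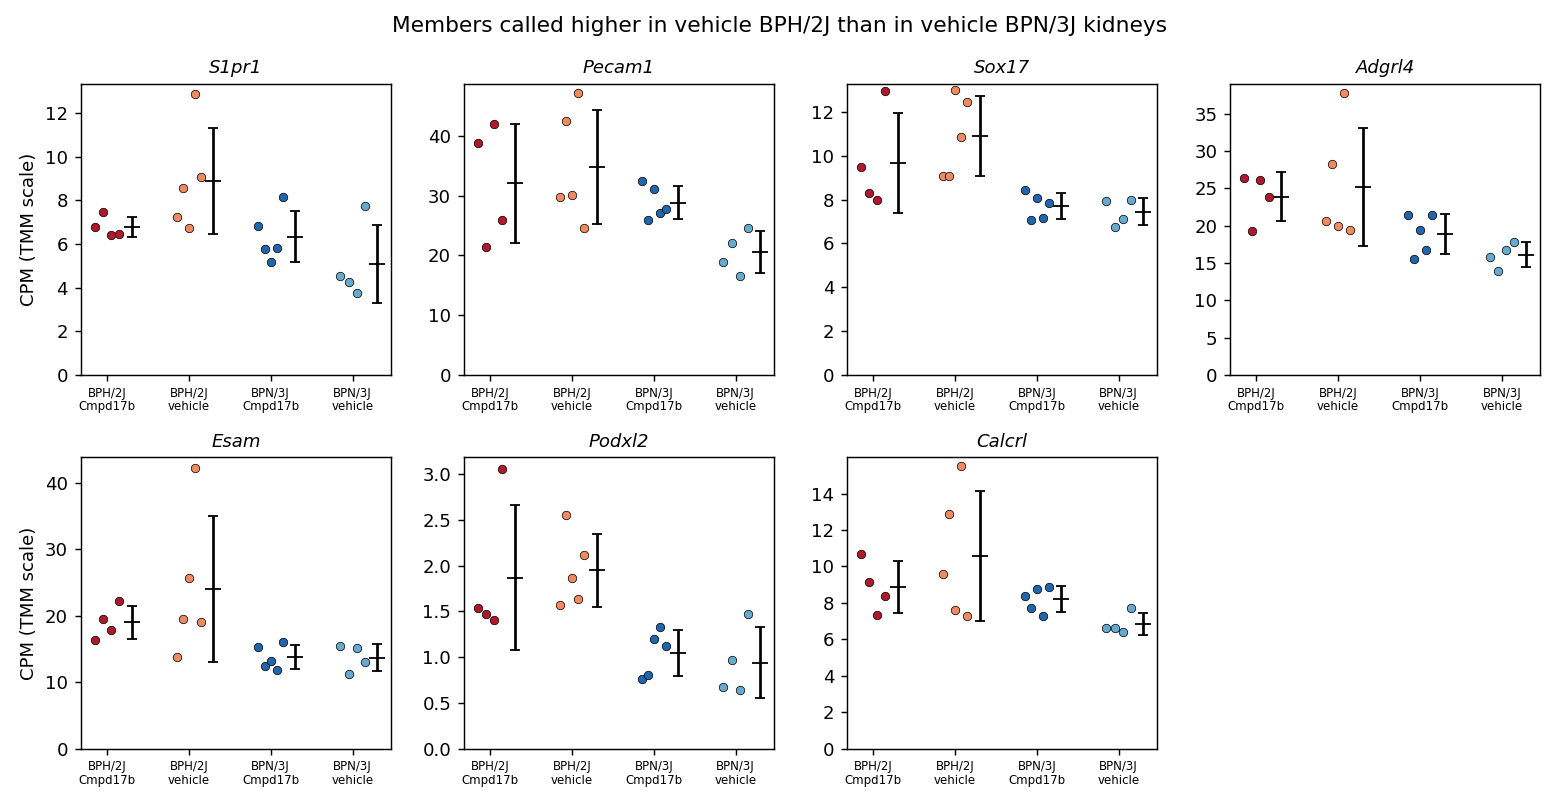
Level in CPM (TMM scale, axis from 0) of the 7 genes called between the strains under vehicle, in the 4 groups of kidneys. Points are libraries, and the bar beside them is the mean ± SD of the group; Pecam1, Sox17, Adgrl4 and Podxl2 do not overlap between the vehicle groups, and S1pr1, Esam and Calcrl do.

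Marker genes of other cell types of the glomerulus and vessel wall differed between the same libraries. Their counts stand against 5.82% of all genes called higher and 10.8% called in either direction. Of 9 podocyte markers 5 were called higher in vehicle BPH/2J, and the list summed to 175 to 253 CPM there against 105 to 137 CPM in vehicle BPN/3J. Of 11 markers of mural cells, the smooth muscle cells and pericytes around vessels, 6 were called higher, at summed levels of 145 to 255 CPM in vehicle BPH/2J against 73.1 to 102 CPM in vehicle BPN/3J. Of 6 fibroblast markers 3 were called higher, at 46.2 to 161 CPM in vehicle BPH/2J against 25.9 to 53.6 CPM in vehicle BPN/3J. No podocyte, mural or fibroblast marker was at 0 in any of the 18 libraries. Of 12 tubule markers 0 were called. The 35 endothelial genes summed to 512 to 828 CPM in vehicle BPH/2J against 448 to 656 CPM in vehicle BPN/3J. Of 5 lymphatic markers tested, 2 were called higher, while Lyve1 was at 0 in 6 libraries and was not tested. BPH/2J vehicle replicate 4, the highest library of its group for 21 of the 35 genes, also had fat cell markers at 55.1 CPM in sum, above every other library of its group, and urothelial markers at 69.1 CPM, where the others had at most 6.87. The part of these cell types in the strain difference was not tested. Without that library and BPN/3J Cmpd17b replicate 1, which had 97.3 CPM of fat cell markers, 1 of the 35 genes was called, with 4.54% of all genes called higher in that fit.

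**Figure D3:**
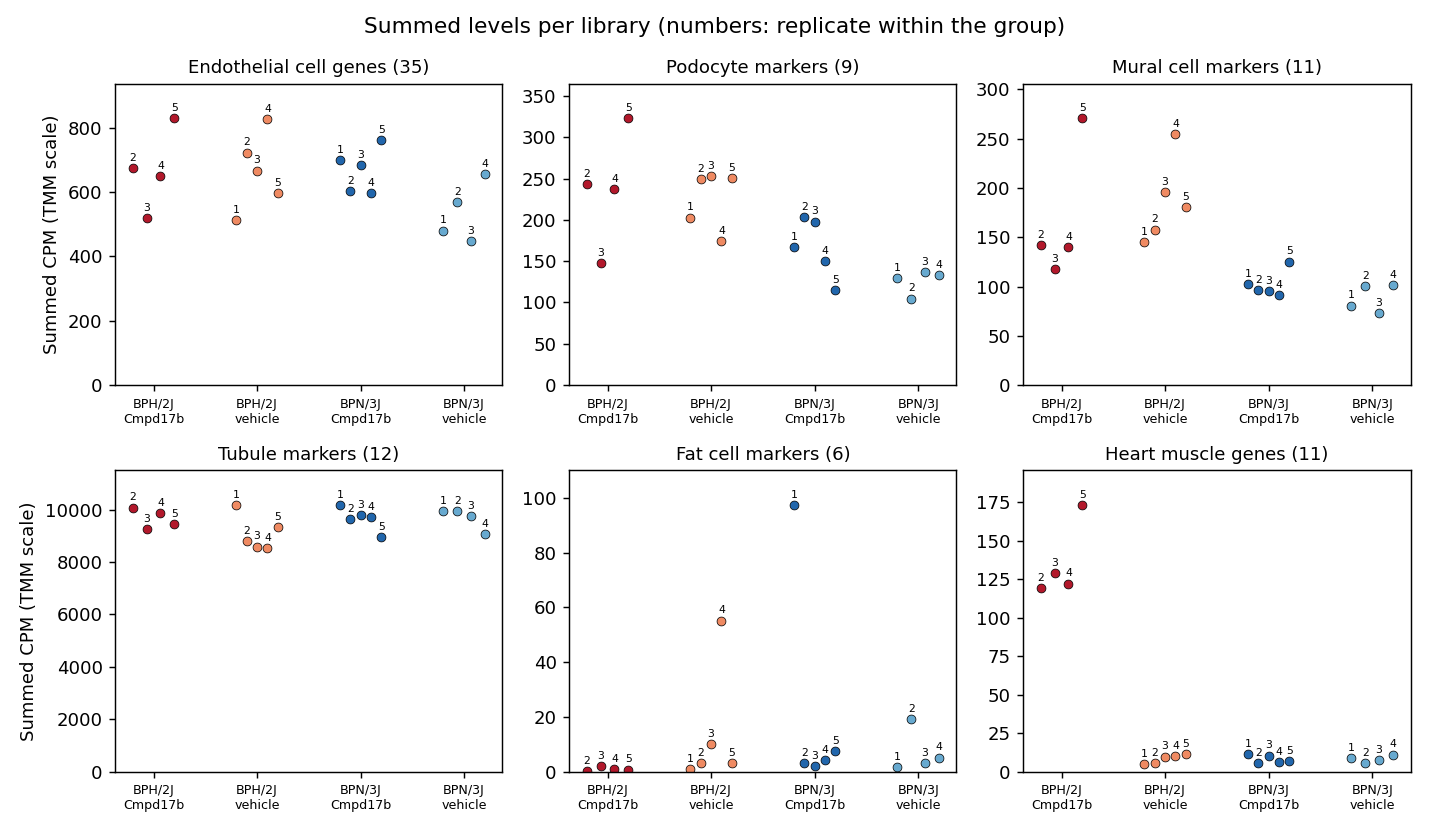
Summed CPM (TMM scale, axes from 0) per library of the 35 endothelial genes and of 5 marker lists, with the replicate number beside each point. Podocyte and mural sums of vehicle BPH/2J libraries lie above all vehicle BPN/3J libraries, tubule sums overlap, fat cell markers are high in BPH/2J vehicle replicate 4 and BPN/3J Cmpd17b replicate 1, and heart muscle genes are high in all 4 treated BPH/2J libraries.

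Genes of the same system outside the 35 were read from fixed lists. Of 25 other endothelial genes, 2 were called higher and 1 lower in vehicle BPH/2J, with a median log2 fold change of 0.40. That is 8% called higher and 12% called in either direction, near the 5.82% and 10.8% of all genes. Nos3, the endothelial nitric oxide synthase, was at 4.59, 6.12, 5.60, 6.24 and 6.49 CPM in vehicle BPH/2J libraries, against 3.26, 3.55, 2.66 and 2.46 CPM in vehicle BPN/3J libraries, which did not overlap. Klf4, a flow-responsive transcription factor, had a log2 fold change of 0.72 (SE 0.215, edgeR adjusted p 0.0371), and Afap1l1, an actin-binding protein, had -0.49 (SE 0.123, adjusted p 0.0144).

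Of 6 genes enriched in glomerular endothelium 2 (33.3%) were called higher, against 5.82% of all genes. They were Plat, the tissue plasminogen activator, at 1.07 (edgeR adjusted p 0.00212), and Hecw2, a ubiquitin ligase, at 0.74 (adjusted p 0.0373).

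Vascular ligands, a list that also holds ligands of receptors outside the 35, changed in both directions. Of 19 tested, 3 were called higher and 2 lower in vehicle BPH/2J. That is 26.3% called in either direction, against 10.8% of all genes. Angpt1, the ligand that activates Tek, was at 8.31, 7.97, 8.36, 7.71 and 9.73 CPM in vehicle BPH/2J libraries, against 11.9, 12.3, 11.2 and 13.2 CPM in vehicle BPN/3J libraries. The groups did not overlap, and the log2 fold change was -0.53 (SE 0.0992, edgeR adjusted p 0.00150). Vegfa, the ligand of Kdr and Flt1, which the kidney makes mainly in podocytes and tubule cells, was also lower (log2 fold change -0.58, SE 0.179, adjusted p 0.0463). Tgfb2 (1.21, SE 0.277, adjusted p 0.00758), Slit3 (0.97, SE 0.275, adjusted p 0.0291) and Jag1, a Notch ligand (0.40, SE 0.124, adjusted p 0.0458), were higher. The receptors Tek, Kdr and Flt1 were not called in the same comparison, as given above.

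The second comparison set treated BPH/2J against treated BPN/3J kidneys. Of the 35 genes 0 were called by edgeR, against 10.4% of all genes called in either direction. DESeq2 called 1 and limma-voom 0, and at an unadjusted p under 0.05 edgeR had 3 higher and 0 lower, against 13.1% of all genes higher. The median log2 fold change was 0.06, with 19 positive values, and it became -0.07 without BPH/2J Cmpd17b replicate 5, when 0 genes were higher at an unadjusted p under 0.05.

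Gja4 had the smallest p. It was at 3.51, 3.44, 3.85 and 10.2 CPM in treated BPH/2J libraries, against 2.54, 2.82, 2.90, 2.55 and 3.50 CPM in treated BPN/3J libraries. Replicate 5 of BPH/2J stood alone, and the log2 fold change of 0.86 (SE 0.291) had an edgeR adjusted p of 0.0691. Podxl2 was at 1.54, 1.48, 1.40 and 3.06 CPM in treated BPH/2J libraries, against 0.761, 0.802, 1.20, 1.33 and 1.12 CPM in treated BPN/3J libraries, and these did not overlap (log2 fold change 0.83, SE 0.303, edgeR adjusted p 0.0954). In 3 genes (Podxl2, Esam and Erg) every treated BPH/2J library lay above every treated BPN/3J library, against 1048 of all 16421 genes. The nearest libraries were at 16.4 and 15.99 CPM for Esam and at 6.470 and 6.465 CPM for Erg. In 1 gene (Flt4) every treated BPH/2J library lay below, against 1046 of all genes.

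Sox17 was at 9.502, 8.29, 7.98 and 12.97 CPM in treated BPH/2J libraries, against 8.43, 7.05, 8.10, 7.17 and 7.84 CPM in treated BPN/3J libraries, which overlapped (log2 fold change 0.32, edgeR adjusted p 0.197). The other genes called under vehicle had log2 fold changes between 0.10 for S1pr1 and 0.46 for Esam under Cmpd17b. Flt4 was at 5.89, 5.41, 5.14 and 5.82 CPM in treated BPH/2J libraries, below each of the treated BPN/3J values given further on (log2 fold change -0.29, edgeR adjusted p 0.280).

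Nos3, outside the 35, was at 4.48, 4.35, 4.87 and 7.90 CPM in treated BPH/2J libraries, against 2.88, 2.82, 2.99, 2.51 and 4.07 CPM in treated BPN/3J libraries. The groups did not overlap, with BPH/2J replicate 5 and BPN/3J replicate 5 the highest of each. Nos3 (0.81, SE 0.197, edgeR adjusted p 0.0105) was called higher in treated BPH/2J. Angpt1 (-0.52, SE 0.101, adjusted p 0.00170) and Vegfa (-0.64, SE 0.182, adjusted p 0.0299) were called lower. Nos3 was the only 1 of 25 other endothelial genes called (4%), and their median log2 fold change was -0.03. Of 19 vascular ligands 2 were called (10.5%). Of all genes 10.4% were called in either direction.

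The third comparison asked what Cmpd17b did in the normotensive line. Of the 35 genes 0 were called in treated BPN/3J against vehicle BPN/3J by edgeR, as for all genes (0% called), and DESeq2 and limma-voom called 0 as well. At an unadjusted p under 0.05 edgeR had 7 higher, against 1.33% of all genes, and DESeq2 and limma-voom had 8 each. The median log2 fold change was 0.32, against -0.0033 for all genes, and 34 of the 35 values were positive. In 4 genes every treated library lay above every vehicle library, against 1.03% of all genes. The vehicle BPN/3J libraries served in this comparison and in the vehicle strain comparison, so a low level in them moves both upwards. The 7 became 1 without BPN/3J vehicle replicate 3, 2 without BPN/3J vehicle replicate 1 or BPN/3J Cmpd17b replicate 1, 4 without BPN/3J Cmpd17b replicate 3, and 13 without BPN/3J vehicle replicate 4. In these refits between 0.737% and 1.71% of all genes were higher at an unadjusted p under 0.05. The count was 12 when only these 2 groups entered the fit, with 2.69% of all genes, and 0 when the left-out library was put back, with 0.381%. Summed over the 35 genes, treated BPN/3J libraries had 700, 604, 683, 596 and 761 CPM, and vehicle BPN/3J libraries had 480, 568, 448 and 656 CPM.

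Sox18, an F-group SOX factor of blood and lymphatic vessels, had the smallest p. It was at 8.65, 9.54, 10.5, 6.98 and 9.51 CPM in treated BPN/3J libraries, against 4.202, 6.95, 4.38 and 5.22 CPM in vehicle BPN/3J libraries. The groups touched without overlapping, at treated replicate 4 and vehicle replicate 2, and the log2 fold change was 0.80 (SE 0.201, unadjusted edgeR p 0.000849, adjusted p 1).

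Flt4 was at 7.92, 6.75, 5.97, 6.80 and 6.59 CPM in treated BPN/3J libraries, against 4.84, 5.77, 3.94 and 6.001 CPM in vehicle BPN/3J libraries. The lowest treated library lay just below the highest vehicle one (log2 fold change 0.41, SE 0.158, edgeR adjusted p 1). Ets1 was at 23.9, 18.8, 20.9, 19.6 and 18.4 CPM in treated BPN/3J libraries, against 11.02, 15.9, 10.6 and 19.6 CPM in vehicle BPN/3J libraries. Vehicle replicate 4 lay within the treated range (log2 fold change 0.51, SE 0.202, edgeR adjusted p 1).

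Cdh5 was at 19.2, 13.1, 13.1, 13.7 and 15.8 CPM in treated BPN/3J libraries, against 9.58, 12.8, 7.87 and 12.3 CPM in vehicle BPN/3J libraries. All treated libraries were above all vehicle libraries by a narrow margin (log2 fold change 0.50, SE 0.210, edgeR adjusted p 1). Pecam1 was at 32.5, 25.9, 31.0, 27.1 and 27.7 CPM in the treated BPN/3J libraries, above every vehicle BPN/3J value given earlier (log2 fold change 0.49, edgeR adjusted p 1). Kdr (0.53) and Tie1 (0.36) also had an unadjusted p under 0.05. Of the genes called between strains, Sox17 (0.05), Esam (0.01) and Podxl2 (0.15) had values near 0 here, as did Gja5 (0.05), and Gja4 was the only one with a negative value (-0.10).

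Over the other lists in this comparison, 0 genes were called. At an unadjusted edgeR p under 0.05, 3 of 25 other endothelial genes and 2 of 9 podocyte markers were higher, against 1.33% of all genes. Podocyte markers summed to 115 to 203 CPM in treated BPN/3J against 105 to 137 CPM in vehicle BPN/3J, and mural markers to 91.2 to 125 CPM in treated BPN/3J against 73.1 to 102 CPM in vehicle BPN/3J. Fibroblast markers summed to 46.8 to 66.3 CPM in treated BPN/3J against 25.9 to 53.6 CPM in vehicle BPN/3J, and 6 of 6 had a positive log2 fold change, with a median of 0.44. The median was 0.44 over 8 leukocyte markers, 6 of them positive, at sums of 53.2 to 73.1 CPM in treated BPN/3J and 54.1 to 69.1 CPM in vehicle BPN/3J. All 5 fat cell markers tested were positive, with a median of 1.57, at sums of 2.18 to 97.3 CPM in treated BPN/3J and 1.82 to 19.3 CPM in vehicle BPN/3J. Tubule markers summed to 8958 to 10173 CPM in treated BPN/3J and 9070 to 9941 CPM in vehicle BPN/3J. Their part in the values of the endothelial genes was not tested.

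The fourth comparison asked the same in the hypertensive line. Of the 35 genes 0 were called in treated BPH/2J against vehicle BPH/2J, against 0.164% of all genes, and 0 had an unadjusted p under 0.05 by edgeR, DESeq2 or limma-voom. The median log2 fold change was -0.02, with 17 positive and 18 negative values, and it ran from -0.14 to 0.11 when single libraries were left out. Without BPH/2J Cmpd17b replicate 5, 5 genes were lower at an unadjusted p under 0.05, with 5.25% of all genes lower in that fit, and 0 were called.

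S1pr1, with the smallest p, was at 6.79, 7.45, 6.42 and 6.46 CPM in treated BPH/2J libraries, against the 6.72 to 12.9 CPM given above for vehicle BPH/2J libraries. Replicates 4 and 5 of the treated libraries lay below the vehicle range, and replicates 2 and 3 lay within it (log2 fold change -0.39, 95% interval -0.85 to 0.06, edgeR adjusted p 1). Esam was at 16.4, 19.5, 17.9 and 22.2 CPM in treated BPH/2J libraries and lay within its vehicle range (log2 fold change -0.34, interval -0.83 to 0.14). Kdr had the largest positive value, 0.32 (interval -0.18 to 0.81), from 39.1 ± 9.30 CPM in treated (SD, n = 4) and 31.3 ± 7.93 CPM in vehicle BPH/2J (n = 5). These intervals do not show that the compound left the genes as they were.

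Heart muscle genes moved with this contrast. The 11 of the list summed to 120 to 173 CPM in treated BPH/2J against 4.87 to 11.7 CPM in vehicle BPH/2J, and 9 of 11 were called higher. In treated BPH/2J libraries they stood at 0.186% to 0.220% of their level in the left-out library (median over the list), and in the other 14 libraries at no more than 0.0187%. At the highest of these median shares, 0.220%, the left-out library's level of an endothelial gene would amount to 0.375 CPM or less (largest for Nrp1). Set against the gene's mean in treated BPH/2J, that ran from 0.0348% (Plvap) to 4.68% (Vwf). The source of the heart muscle counts, and their part in the endothelial values, was not tested.

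The effect of Cmpd17b in BPH/2J minus that in BPN/3J was tested as an interaction. Of the 35 genes 0 were called by edgeR, DESeq2 or limma-voom, against 0.0304% of all genes by edgeR. At an unadjusted p under 0.05 edgeR had 4 lower, against 2.12% of all genes, and DESeq2 and limma-voom had 5 each. They were Sox18 (-0.68, SE 0.283), Cdh5 (-0.71, SE 0.296), S1pr1 (-0.71, SE 0.306) and Plvap (-0.57, SE 0.267), each with an edgeR adjusted p of 1. The median was -0.31 and 33 of 35 values were negative, against a median of 0.0008 and 8177 negative values over all 16421 genes. The vehicle BPN/3J libraries enter this contrast too, and a low level in them moves it downwards. It is therefore not separate from the rise in treated BPN/3J given above. The genes share the same libraries, so their signs are not independent. The count at an unadjusted p was 0 without BPH/2J vehicle replicate 4, without BPN/3J vehicle replicate 1 or without replicate 3 of that group. It was 1 without BPH/2J Cmpd17b replicate 3 and 2 without BPH/2J vehicle replicate 2 or without BPN/3J Cmpd17b replicate 1, 3 or 5. It was 7 without BPH/2J Cmpd17b replicate 2 or BPH/2J vehicle replicate 1 or 3, and 10 without BPH/2J Cmpd17b replicate 5. In that last refit 4.06% of all genes were lower at an unadjusted p under 0.05, and in the others named here between 1.52% and 2.80%.

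**Figure D4:**
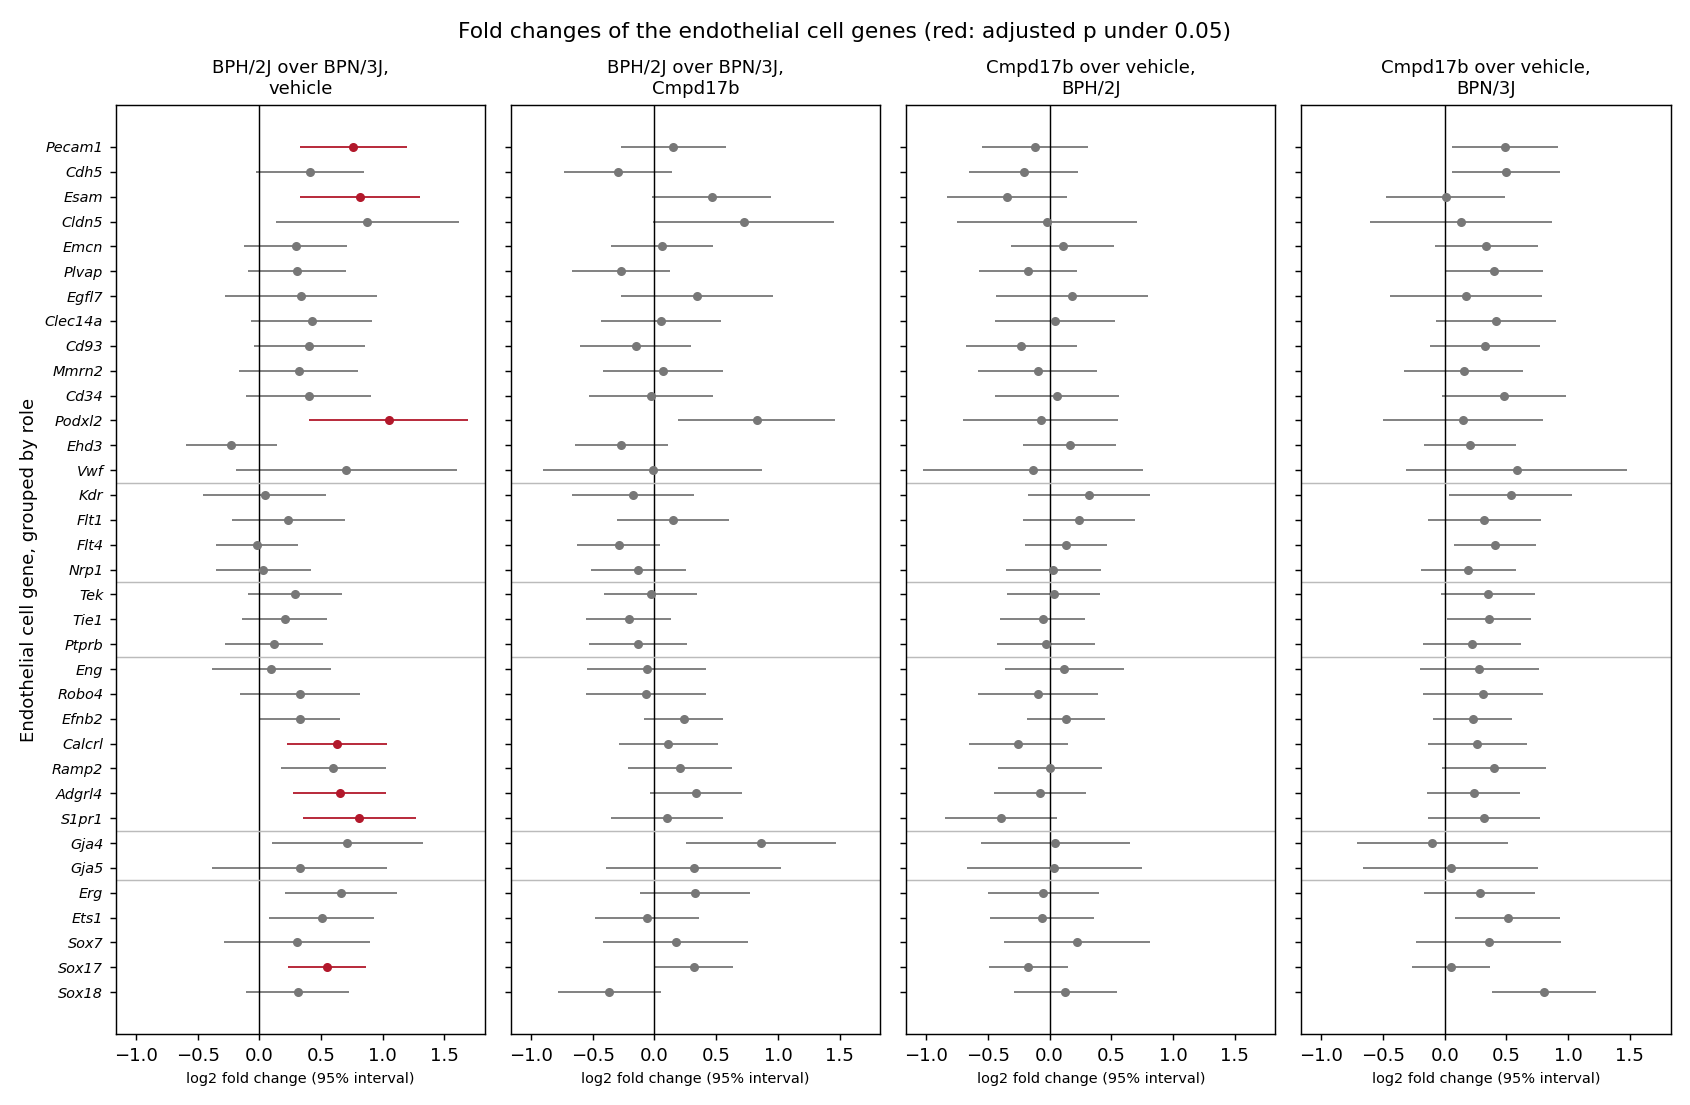
Log2 fold change of each of the 35 genes in 4 comparisons, with the 95% interval from edgeR. The 7 red points in the vehicle strain comparison are the calls; points in the treated BPN/3J comparison lie right of 0 for 34 genes, and those in the treated BPH/2J comparison lie on both sides.

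Variation among libraries of a group differed between genes. The SD within groups on the log2 scale was smallest for Flt4 (0.198), Sox17 (0.203) and Efnb2 (0.224), and largest for Cldn5 (0.520), Gja5 (0.471) and Egfl7 (0.462). The same 3 genes were far above their group in BPH/2J Cmpd17b replicate 5. In that library Gja5 was at 11.1 CPM, 3.81 times the mean of the other 3 treated BPH/2J libraries, Cldn5 at 22.3 CPM (3.66 times), Vwf at 2.19 CPM (3.52 times), Egfl7 at 60.3 CPM (2.84 times) and Gja4 at 10.2 CPM (2.83 times). Sox7 (2.23 times), Robo4 (2.08 times), Podxl2 (2.08 times) and Eng (2.02 times) were also high there. In the same library Pecam1 (0.758 times), Cd93 (0.739 times), Cdh5 (0.807 times), Ptprb (0.837 times) and Plvap (0.850 times) lay below that mean, and Tek and Adgrl4 were at 1.01 and 0.995 times. The library also had the highest podocyte (323 CPM), mural (271 CPM) and platelet (12.8 CPM) sums of the 18 and the smallest total count, and its 10 most abundant genes took 34.3% of its counts. The part of these in the levels was not tested.

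**Figure D5:**
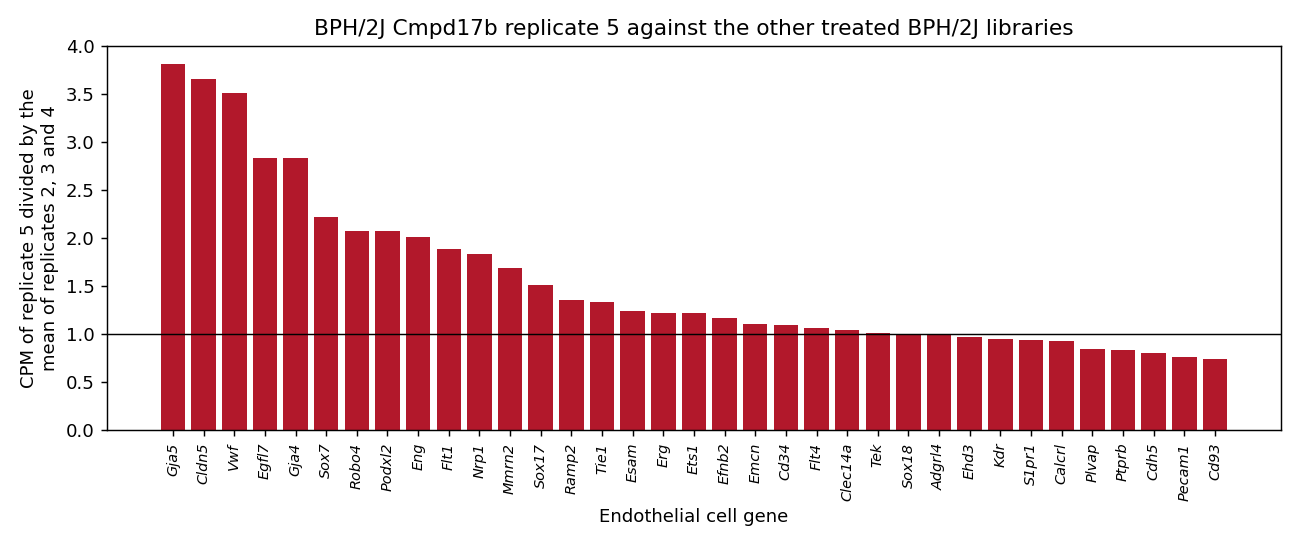
CPM of each of the 35 genes in BPH/2J Cmpd17b replicate 5 divided by its mean in BPH/2J Cmpd17b replicates 2, 3 and 4 (linear axis from 0, line at 1). Gja5, Cldn5 and Vwf are highest at 3.81, 3.66 and 3.52 times, and Cd93 and Pecam1 lowest at 0.739 and 0.758 times.

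The p-values measure the spread between mice, and all libraries carry 1 batch label. Of the 35 genes, 27 share no exon with another gene in the GRCm38 annotation, and 6 overlap a transcript on the opposite strand.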

How the data were processed

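Kidney RNA was sequenced as paired reads, 1 library per mouse. Per the submitters' processing notes, Trim Galore 0.6.7, STAR 2.7.9a and the builds mm39 and GRCm39 were used. The deposited table holds estimated counts per gene made by the authors, between 4.63% and 10.1% of them not whole; no label or header names the counting tool, annotation or use of strand. They were rounded to whole numbers. Genes were filtered with edgeR's filterByExpr (minimum count 10, minimum total 15), normalised by TMM and fitted in 1 robust quasi-likelihood model of 18 libraries and 4 groups (edgeR 4.0.16, R 4.3.3). P-values were Benjamini-Hochberg adjusted over 16421 genes and called under 0.05. The steps were tested on simulated counts drawn separately for each gene. Those counts hold no shifts shared by many genes of 1 library, so the test does not speak to such shifts.

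DESeq2 1.42.0, limma-voom (limma 3.58.1), other scalings, filters and sample sets, and leaving out each library were alternatives. Leaving out the 2 libraries highest in fat cell genes was added after seeing the data. Exon overlaps and lengths came from a GRCm38 annotation and promoters from RefSeq; promoter windows were matched by gene symbol. The members and lists were chosen with earlier results of these data known. Values per library are given for genes called in any comparison and for the smallest p where none was called, 12 genes in all. They cover the libraries of the groups under comparison in the text, and for most of these genes not all 4 groups. From the lists of vascular ligands and other endothelial genes the 3 smallest p under vehicle are given. Other cell type lists are given as counts and sums. Jag1, Vegfa, Plat, Hecw2, and the genes named for BPH/2J Cmpd17b replicate 5, were named after their values were seen. BPH/2J Cmpd17b replicate 1 was left out for its heart-like profile. Depth limits the precision of Vwf, Podxl2 and Sox7 most.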

Additional observations from a re-analysis of the deposited data

Results flagged for a closer look

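Single libraries stood far from the others of their group in 11 of 140 combinations of gene and group. For normally distributed values chance gives about 1 in 20. The genes share the same libraries, so the combinations are not independent and the 11 cannot be set against that rate as a test. BPH/2J Cmpd17b replicate 5 held 8 of them as the highest of its group, with Cldn5 at 22.3 CPM, Egfl7 at 60.3 CPM, Mmrn2 at 20.6 CPM, Podxl2 at 3.06 CPM, Vwf at 2.19 CPM, Nrp1 at 116 CPM, Gja4 at 10.2 CPM and Gja5 at 11.1 CPM. BPH/2J Cmpd17b replicate 3 was the lowest of its group for Cd34, at 12.6 CPM. BPN/3J Cmpd17b replicate 1 was the highest of its group for Ptprb, at 31.7 CPM, and BPN/3J vehicle replicate 4 for Ehd3, at 22.2 CPM.

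The left-out library labelled BPH/2J Cmpd17b replicate 1 entered no comparison except the alternative with all 19 libraries. In it 29 of the 35 genes were above all 18 other libraries. The share of all genes above the 18 was not computed, so this count cannot be read as particular to the 35. Plvap (8.59 CPM) and Ehd3 (3.88 CPM) were below all 18.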

How the results depend on the processing

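Between strains under vehicle 7 genes were called as reported, with 5.82% of all genes called higher. With all 19 libraries the count was 0 (1.92% of all genes). It was 3 when only the 2 compared groups were fitted (4.96%) and 1 without the 2 libraries highest in fat cell genes (4.54%). It was 0 to 11 when single libraries were left out (3.88% to 8.05%). Between strains under Cmpd17b 0 genes were called as reported, with 10.4% of all genes called in either direction. The count was 1 with DESeq2 (13.7% of all genes) and 2 with all 19 libraries (8.75%). It was 0 to 1 when single libraries were left out (7.89% to 10.7%). With all 19 libraries the median log2 fold change was 0.69 between strains under Cmpd17b, 0.57 for Cmpd17b in BPH/2J and 0.31 for the interaction. The causes were not tested. Under the other scalings, filters and tools the vehicle count was between 5 and 9, with 2.60% to 7.53% of all genes called higher. No paired analysis was possible because each mouse gave 1 library and the replicate numbers mark different mice. The p-values measure the spread between mice of each group, and 4 or 5 libraries a group limit the precision.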
